A study of Homo sapiens
Mus musculus with 6 samples.

Results

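The 32 genes described here are the HIF pathway and its hypoxia targets, comprising the HIF subunits, the proteins that mark and destroy them, and genes that HIF is known to switch on when oxygen falls. They were chosen by symbol as a list of known pathway genes, with earlier results of these data known. Their counts and medians therefore describe these genes and are no test of the pathway. Each symbol was looked up in the 2 gene tables of a xenograft study, which hold 63652 human and 42979 mouse entries. All 32 were found in both tables, with 1 row each. The authors tested 31 of them in the cancer cells, leaving out STC2, and all 32 in the host. The tumours were raised under the skin of nude mice from HT29 cells, a line established from a human colorectal adenocarcinoma, and grew for 4 weeks without treatment. There were 3 control tumours and 3 in which mouse laminin alpha 1, a chain of basement membrane laminin, was overexpressed, and the labels call the tumours of a group independent. In such a graft human RNA stems from the HT29 cells, while mouse RNA stems from host tissue and from the transgene. The labels do not say which promoter drives the transgene, how many HT29 clones were used, or the strain and age of the mice.

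Cells sense oxygen through the HIF alpha proteins, which prolyl hydroxylases of the EGLN family mark for destruction by the VHL ubiquitin ligase as long as oxygen is present. When oxygen is scarce the alpha subunit escapes, pairs with ARNT and binds the control regions of genes for sugar uptake, glycolysis, mitochondrial turnover, collagen maturation and vessel growth. Control of HIF1A and EPAS1 acts largely on their proteins, which RNA does not measure, and EGLN1 and EGLN3, which HIF induces, are themselves brakes on HIF.

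Each table gives 1 value per group, shown here as parts per 1000000 of the summed signal of its table (ppm). The tables hold no spread between tumours, so the values of single tumours, an SD and the effect of leaving out a tumour cannot be given. Significance is that of the authors' test, called at an adjusted p under 0.05 in the human table (Benjamini-Hochberg) and at a q-value under 0.05 in the mouse table. The values follow read numbers without a correction for gene length, and each species has its own scale, so levels are compared between groups and not between genes. The lowest values moved in fixed steps, taken as 1 read of 1 tumour, worth 0.0120 to 0.0137 ppm in the human table and 0.103 to 0.254 ppm in the mouse table. A host gene therefore rests on far fewer reads than a human gene at the same ppm, and the 95% intervals below (Clopper-Pearson) cover that counting error only. These intervals take every read as worth the largest step of its group, which gives the lowest read number, so they are approximate. Mouse steps differed by up to 2.47-fold among laminin tumours and 1.02-fold among control tumours, which is a difference in depth if the libraries were scaled alike. For 17 human genes and 1 mouse gene the deposited locus also covers another tested gene, and the library protocol describes no step that keeps the strand. Mouse Lama1, the overexpressed gene, stood at 4.75 ppm in the control tumours and at 1077 ppm where it was overexpressed.

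The labelled tissues were checked first. In the human table the epithelial genes EPCAM (1041 and 1033 ppm in control and laminin tumours) and KRT8 (1920 and 1757 ppm) were present in both groups, whereas the endothelial marker PECAM1 was listed at 0. Other markers of stroma and blood were not all at 0 there. Their list, which includes PECAM1, held 23.6 and 50.9 ppm, with 3 of 7 tested genes called higher. Most of this sum was CD68 (18.9 and 41.4 ppm), which was not called (adjusted p = 0.301 from the authors' p). The 3 called genes had at most 3.32 ppm each. In the mouse table fibroblast Col1a1 (9737 and 9604 ppm) and endothelial Pecam1 (370 and 373 ppm) were present, and Krt8 had 0.455 ppm in control tumours and was listed at 0 in laminin tumours. Epcam, which mouse skin also makes, had 19.2 and 0.506 ppm. Little signal of KRT8 thus stood under its mouse name, in either group.

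In the cancer cells, hypoxia targets rose while the HIF subunits did not pass the test. Of 31 tested human genes 13 rose and 0 fell, among them NDRG1, P4HA2, SLC2A1, SLC16A3, ERO1L and the oxygen sensor EGLN1. The count was 8 with the Benjamini-Yekutieli adjustment and 6 with a fold of at least 1.5 required. Among all tested human genes 5.63% were called higher and 2.45% lower. Most of the 32 genes are well expressed, and at 20 ppm or more (a minimum chosen after seeing the data, which 27 of them reached) the shares of all tested genes were 6.58% and 4.25%. The median log2 ratio of the human genes was 0.40, against 0.00 for all tested genes.

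In the host, sugar and lactate transporters and a few classical targets rose. Of 32 mouse genes 6 rose and 0 fell, the former being Slc2a3, Slc2a1, Ero1l, Egln3, Slc16a3 and Ndrg1. At a threshold of 0.01, and also with the Benjamini-Yekutieli adjustment, 3 were called, Slc2a3, Slc2a1 and Ero1l, which have the lowest p-values of the 6. Among all tested mouse genes 0.579% were called higher and 2.96% lower, and at 20 ppm or more, which 30 of the genes reached, 0.969% and 3.21%. The median log2 ratio was 0.49, against -0.03 for all tested mouse genes. At an unadjusted p under 0.05 in the authors' deposited table, 19 human and 16 mouse genes were higher and 0 were lower in either species. Among all tested genes, 10.1% of human and 2.96% of mouse genes were higher at that unadjusted p. The 2 comparisons rest on the same 6 tumours, so the species are not independent of each other, and whether a gene responded differently in tumour cells and host was not tested. Adipocyte, skeletal muscle and skin markers were lower in the host RNA of laminin tumours, with summed levels given further on, and fewer cells of a type and less RNA per cell cannot be told apart in bulk tissue.

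**Figure D1:**
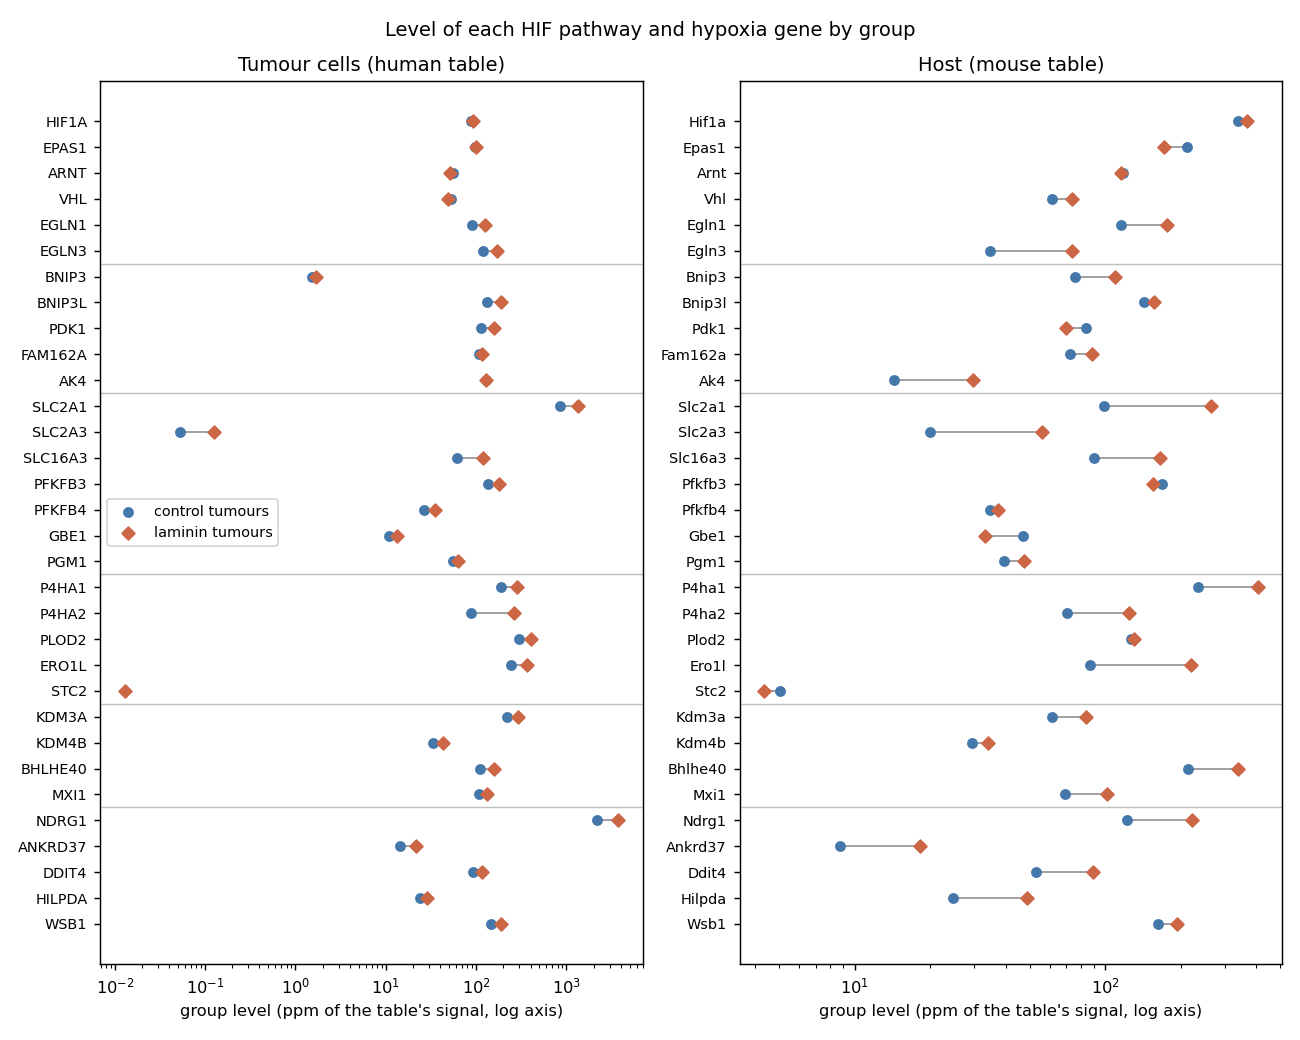
Group level of each gene in ppm of its table's signal (log axis, 1 value per group with no error) in the human table (left) and the mouse table (right), with circles for control and diamonds for laminin tumours and lines between groups of related genes. Human SLC2A3 and STC2 lie furthest left, STC2 has no control point because it was listed at 0, and human P4HA2 moves from 86.8 to 260 ppm.

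None of the HIF subunits passed the test in either table. HIF1A, the oxygen-labile subunit of HIF-1, had 86.7 and 91.8 ppm in the cancer cells of control and laminin tumours, a ratio of 1.06 with an adjusted p of 0.938 (Benjamini-Hochberg over all tested genes, from the authors' p-values). Pairs of values below are in the same order. Host Hif1a (mm10 chromosome 12, 73907867 to 73947530) had 339 and 369 ppm (q = 0.996, from the authors' deposited table). Neither value passed the test, and the counting intervals of the ratio were 1.02 to 1.10 in the tumour cells and 1.02 to 1.16 in the host. EPAS1, which encodes the alpha subunit of HIF-2 and is prominent in endothelium, had 96.3 and 99.4 ppm in the cancer cells. Host Epas1 (chromosome 17, 86753864 to 86833410) had 212 and 171 ppm, a ratio of 0.804 with q = 0.865 in the authors' deposited table. ARNT, the shared partner of both alpha subunits, had 55.8 and 51.1 ppm in the cancer cells and 118 and 115 ppm in the host (chromosome 3, 95434390 to 95497239). VHL, the substrate-binding part of the ligase that removes HIF alpha, had 52.8 and 48.9 ppm in the cancer cells and 61.1 and 73.8 ppm in the host (chromosome 6, 113624021 to 113631633). ARNT and VHL were the 2 human genes whose ratio lay below 1, and neither passed, with adjusted p of 0.809 and 0.871 from the authors' p.

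Both HIF hydroxylase genes of the list had ratios above 1 in both tables, and 1 passed the test in each table. EGLN1 (ENSG00000135766), also called PHD2 and the main oxygen sensor, rose in the cancer cells from 89.6 to 125 ppm, a 1.40-fold difference (log2 ratio 0.48, adjusted p = 0.00228 from the authors' p). Host Egln1 (chromosome 8, 124908587 to 124949254) had 116 and 176 ppm and did not pass (q = 0.250, from the authors' deposited table). Its ratio of 1.51, with a counting interval of 1.36 to 1.68, was above that of human EGLN1. It had about 759 reads in control tumours, against 6877 for human EGLN1. EGLN3, or PHD3, the hydroxylase most strongly induced by HIF in many cell types, rose in the host from 34.7 to 73.7 ppm (chromosome 12, 54178981 to 54203874). This was a 2.12-fold difference with a counting interval of 1.78 to 2.54 and q = 0.0251 in the authors' deposited table. In the cancer cells EGLN3 had 119 and 171 ppm, a ratio of 1.44, and missed the threshold at an adjusted p of 0.0885 from the authors' p. EGLN1 thus passed in the tumour table and EGLN3 in the host table, and the other hydroxylase of each table had a ratio above 1 without passing. Whether either gene differed in its response between tumour cells and host was not tested.

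The glucose transporter gene SLC2A1 and the lactate exporter gene SLC16A3 rose in both tables, and Slc2a3 rose in the host. SLC2A1 (ENSG00000117394), the widely expressed glucose transporter GLUT1, rose in the cancer cells from 858 to 1331 ppm, or 1.55-fold (adjusted p = 0.00121 from the authors' p). Host Slc2a1 (chromosome 4, 119108745 to 119137329) rose from 98.6 to 263 ppm, a 2.67-fold difference with a counting interval of 2.41 to 2.95 and q = 0.00238 in the authors' deposited table. SLC2A3 encodes GLUT3, a high-affinity glucose transporter of neurons and blood cells. Host Slc2a3 (chromosome 6, 122727809 to 122742745) rose from 19.9 to 55.7 ppm, 2.79-fold with a counting interval of 2.23 to 3.49 (q = 0.00238, from the authors' deposited table). Its log2 ratio of 1.48 became 1.28 with 5 ppm added to both levels. In the HT29 cells SLC2A3 had 0.0526 and 0.126 ppm, or about 4.04 and 10 reads, and its counting interval of 0.681 to 10.3 leaves its direction undetectable at this depth. SLC16A3 (ENSG00000141526), the lactate exporter MCT4 of glycolytic cells, rose in the tumour cells from 61.7 to 119 ppm, 1.93-fold (adjusted p = 0.0313 from the authors' p), at a locus that also covers CSNK1D. Host Slc16a3 (chromosome 11, 120948484 to 120959000) rose from 90.1 to 166 ppm, 1.85-fold (q = 0.0211, from the authors' deposited table).

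Of the enzymes that steer sugar toward glycolysis or glycogen, PFKFB3 passed in the cancer cells and none passed in the host. The shares of all tested genes called higher were 5.63% (human) and 0.579% (mouse). PFKFB3 and PFKFB4 set the amount of the small molecule that activates phosphofructokinase. PFKFB3 (ENSG00000170525) rose in the cancer cells from 137 to 179 ppm, 1.30-fold (adjusted p = 0.0438 from the authors' p), and PFKFB4 had 26.5 and 35.3 ppm and missed the threshold (adjusted p = 0.0725). In the host Pfkfb3 (chromosome 2, 11471431 to 11553929) had 168 and 155 ppm and Pfkfb4 (chromosome 9, 108991902 to 109032225) 34.7 and 37.3 ppm (q = 0.996 for both, from the authors' deposited table). The counting intervals of their ratios were 0.835 to 1.02 and 0.866 to 1.33, both spanning 1. GBE1, the glycogen branching enzyme, had 10.9 and 13.2 ppm in the tumour cells. Host Gbe1 (chromosome 16, 70314087 to 70569716) had 47.1 and 33.0 ppm, a ratio of 0.701 (q = 0.694, from the authors' deposited table).

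PGM1, phosphoglucomutase, which links glycogen to glycolysis, had 55.1 and 63.0 ppm in the tumour cells. The mouse row named Pgm1 (chromosome 5, 64092950 to 64128158) had 39.5 and 47.3 ppm. By older mouse names the chromosome 5 gene Pgm1 is the counterpart of human PGM2, and the counterpart of human PGM1 is called Pgm2. In the tables human PGM2 lies on the same chromosome as TBC1D1, as does mouse Pgm1 with Tbc1d1, whereas mouse Pgm2 lies on chromosome 4. Mouse Pgm2 had 149 and 94.4 ppm (p = 0.0174, q = 0.256, from the authors' deposited table). Matching by symbol therefore sets different enzymes side by side, and the host ratio of 1.20 is that of the mouse gene so named, against 0.632 for mouse Pgm2.

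**Figure D2:**
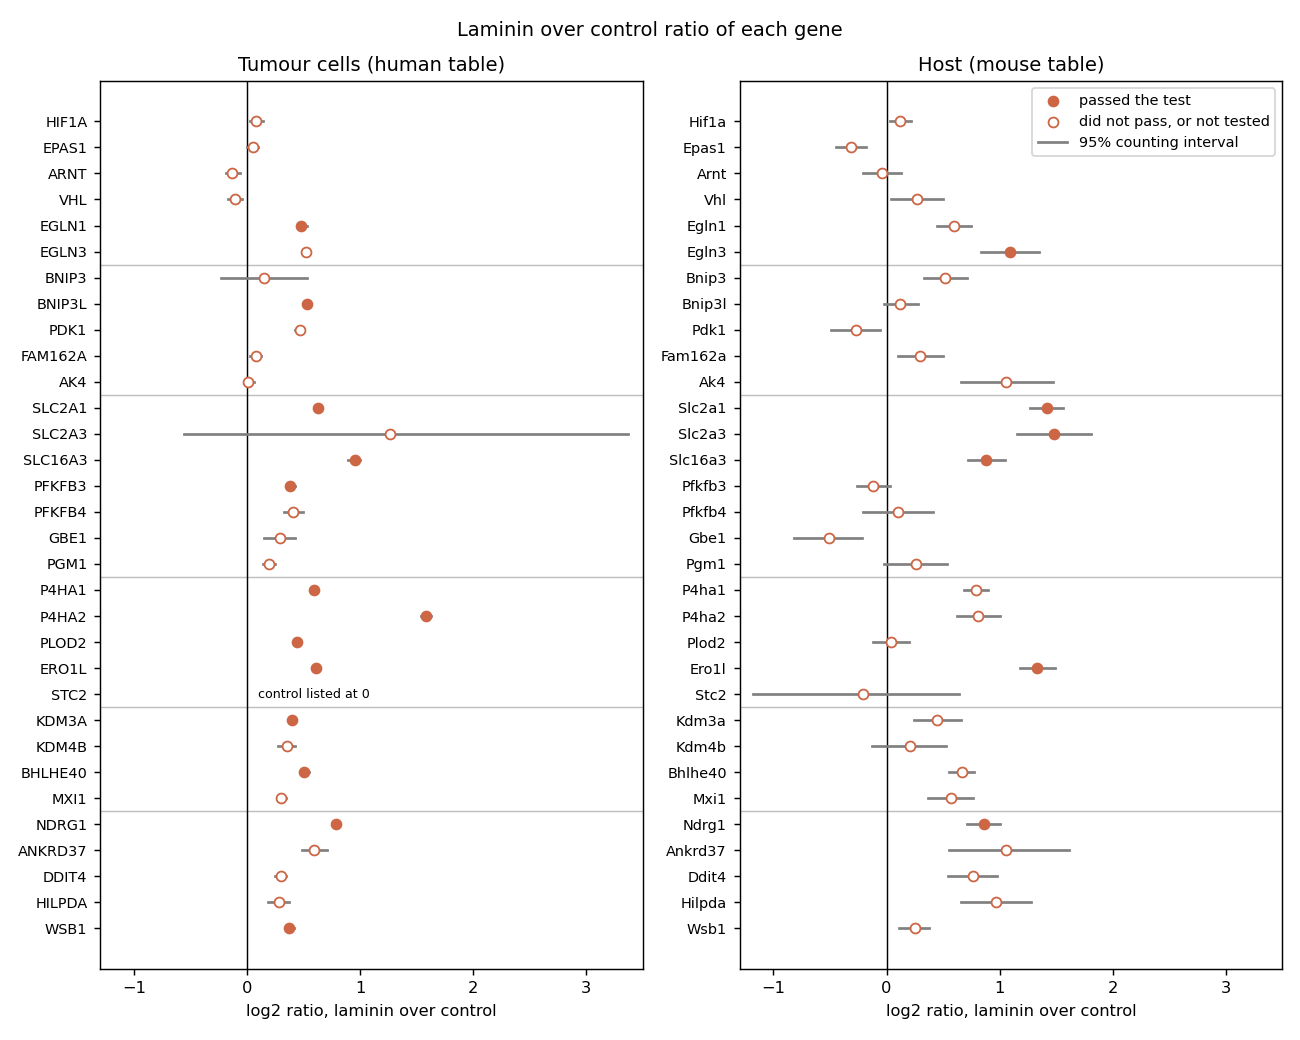
Log2 ratio of laminin over control tumours for each gene in the human table (left) and the mouse table (right). Filled points passed the authors' test at an adjusted p or q-value under 0.05, open points did not pass, and bars are 95% intervals of counting error alone. The 13 filled human points lie between 0.37 and 1.58 and the 6 filled host points between 0.86 and 1.48, all above 0.

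Genes of collagen maturation and secretion were the group in which every tested human gene rose. The share of all tested human genes called higher was 5.63%. P4HA1 and P4HA2 encode catalytic subunits of the collagen prolyl hydroxylase, which stabilises the collagen triple helix. P4HA2 (ENSG00000072682) rose in the cancer cells from 86.8 to 260 ppm, 2.99-fold (log2 ratio 1.58, adjusted p = 0.00121 from the authors' p). It was the largest ratio of the 31 tested human genes, although the interval of SLC2A3, which rests on few reads, reaches higher. Its deposited locus also covers the antisense gene P4HA2-AS1 and the neighbours PDLIM4, SLC22A4 and SLC22A5. Whether their transcripts share sequence with P4HA2 was not examined. Where transcripts of opposite strands overlap, their reads cannot be told apart without strand. P4HA1 (ENSG00000122884) rose from 187 to 281 ppm (log2 ratio 0.59, adjusted p = 0.00121 from the authors' p). PLOD2 (ENSG00000152952), a lysyl hydroxylase needed for collagen cross-links, rose from 298 to 404 ppm, 1.35-fold (adjusted p = 0.00836 from the authors' p). ERO1L (ENSG00000197930), the endoplasmic reticulum oxidase that drives disulfide formation, rose from 241 to 367 ppm, 1.52-fold (adjusted p = 0.00121 from the authors' p). STC2, a secreted stress-induced glycoprotein, was listed at 0 in control tumours and at 0.0129 ppm, a single read, in laminin tumours, and was not tested.

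In the host Ero1l passed, both collagen prolyl hydroxylase genes came close to the threshold, and Plod2 and Stc2 did not. Ero1l (chromosome 14, 45283087 to 45318572) rose from 87.0 to 219 ppm, 2.52-fold with a counting interval of 2.26 to 2.81 and q = 0.00238 in the authors' deposited table. P4ha2 (chromosome 11, 54100924 to 54131667) had 70.3 and 124 ppm, a ratio of 1.76, and just missed the threshold with q = 0.0526 in the authors' deposited table. P4ha1 (chromosome 10, 59323296 to 59373304) had 235 and 406 ppm, a ratio of 1.73 (q = 0.0799, from the authors' deposited table). These 3 host genes had ratios above the median of the 32, and Ero1l alone passed. Plod2 (chromosome 9, 92538801 to 92608427) had 127 and 130 ppm, with a counting interval of 0.918 to 1.15, and Stc2 (chromosome 11, 31359441 to 31370061) had 5.05 and 4.35 ppm on about 33 control reads.

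Among the 5 genes that act on mitochondria, BNIP3L rose in the tumour cells and none of 5 passed in the host. The shares of all tested genes called higher were 5.63% (human) and 0.579% (mouse). The median log2 ratio of the 5 genes was 0.15 in the tumour cells and 0.30 in the host. BNIP3 and BNIP3L, also called NIX, are outer membrane receptors for the removal of mitochondria by autophagy. BNIP3L (ENSG00000104765) rose in the cancer cells from 132 to 190 ppm, 1.45-fold (adjusted p = 0.00228 from the authors' p). BNIP3, in many cell types a strong HIF target, had 1.53 and 1.70 ppm in the HT29 cells, about 117 reads in control tumours, and did not pass (counting interval 0.852 to 1.44). Host Bnip3 (chromosome 7, 138890836 to 138909506) had 76.0 and 109 ppm (p = 0.0461, q = 0.474, from the authors' deposited table). Host Bnip3l (chromosome 14, 66985240 to 67008877) had 143 and 156 ppm, a ratio of 1.09. Neither host gene passed, and the counting interval of the ratio lay above 1 for Bnip3 (1.26 to 1.64) and spanned 1 for Bnip3l (0.982 to 1.21).

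PDK1, a kinase that inhibits pyruvate dehydrogenase in the mitochondrion, had 114 and 158 ppm in the tumour cells. Its ratio of 1.38 was above that of called genes such as KDM3A, but it did not pass (adjusted p = 0.527 from the authors' p), and its deposited locus also covers ITGA6. Host Pdk1 (chromosome 2, 71873272 to 71903858) had 83.9 and 69.4 ppm (q = 0.913, from the authors' deposited table). FAM162A, a hypoxia-induced mitochondrial protein, had 109 and 115 ppm in the tumour cells and 72.2 and 88.7 ppm in the host (chromosome 16, 36043844 to 36071515). AK4, a mitochondrial adenylate kinase, had 128 and 130 ppm in the tumour cells, where its counting interval was 0.982 to 1.04. Host Ak4 (chromosome 4, 101419289 to 101467771) had 14.3 and 29.7 ppm, a ratio of 2.08 with a counting interval of 1.58 to 2.78, and did not pass (q = 0.140, from the authors' deposited table).

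Of the 4 nuclear genes, 2 rose in the cancer cells and 0 of 4 passed in the host. Among all tested genes 5.63% (human) and 0.579% (mouse) were called higher. The median log2 ratio of the 4 was 0.38 in the cancer cells and 0.51 in the host. KDM3A (ENSG00000115548), a histone demethylase, rose from 219 to 289 ppm, 1.32-fold (adjusted p = 0.0273 from the authors' p). BHLHE40 (ENSG00000134107), a transcriptional repressor of the circadian and hypoxia responses, rose from 111 to 158 ppm, 1.42-fold (adjusted p = 0.00228 from the authors' p), at a locus that also covers BHLHE40-AS1. KDM4B, another histone demethylase, had 33.4 and 42.5 ppm (adjusted p = 0.127 from the authors' p), and MXI1, an antagonist of MYC, had 108 and 133 ppm (adjusted p = 0.164). All 4 ratios thus lay above 1, and those of KDM3A and BHLHE40 passed. In the host Bhlhe40 (chromosome 6, 108577039 to 108666925) had 213 and 337 ppm (p = 0.0140, q = 0.220, from the authors' deposited table). Host Mxi1 (chromosome 19, 53310506 to 53375810) had 68.9 and 102 ppm, Kdm3a (chromosome 6, 71588972 to 71632905) 61.3 and 83.6 ppm and Kdm4b (chromosome 17, 56326050 to 56402873) 29.4 and 33.9 ppm. Their q-values were 0.360, 0.643 and 0.986 in the authors' deposited table. The host ratios of Bhlhe40, Mxi1, Kdm3a and Kdm4b were 1.59, 1.48, 1.36 and 1.15, also all above 1.

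NDRG1 (ENSG00000104419), a stress-induced cytoplasmic protein and a classical hypoxia marker, rose in both tables. In the cancer cells it went from 2174 to 3752 ppm, 1.73-fold (adjusted p = 0.00121 from the authors' p). It had about 166808 reads in control tumours, the most of any of the 32 genes. Host Ndrg1 (chromosome 15, 66929318 to 66969641) rose from 122 to 221 ppm, 1.81-fold with a counting interval of 1.64 to 2.00 and q = 0.0225 in the authors' deposited table. WSB1 (ENSG00000109046), a ubiquitin ligase adaptor, rose in the cancer cells from 146 to 189 ppm, 1.29-fold (adjusted p = 0.0460 from the authors' p), the smallest called ratio. Host Wsb1 (chromosome 11, 79239382 to 79254695) had 163 and 193 ppm and did not pass (q = 0.923, from the authors' deposited table).

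HILPDA, DDIT4 and ANKRD37 had ratios above 1 in both tables without passing. HILPDA, which coats lipid droplets and restrains lipolysis, had 23.7 and 28.8 ppm in the tumour cells and 24.7 and 48.5 ppm in the host (chromosome 6, 29272488 to 29275449). The host ratio of 1.96 had q = 0.0698 in the authors' deposited table. DDIT4, or REDD1, which restrains mTOR signalling, had 93.2 and 115 ppm in the tumour cells and 52.7 and 89.3 ppm in the host (chromosome 10, 59949675 to 59951770), the latter with q = 0.101 in the authors' deposited table. ANKRD37, an ankyrin repeat protein, had 14.4 and 21.7 ppm in the tumour cells (adjusted p = 0.297 from the authors' p). Host Ankrd37 (chromosome 8, 45996908 to 45999850) had 8.73 and 18.2 ppm on about 57 control reads, and its counting interval was 1.47 to 3.05. The smallest called ratio was 1.81 in the host and 1.29 in the tumour cells, and host ratios of up to 2.08 (Ankrd37 and Ak4) had no call.

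**Figure D3:**
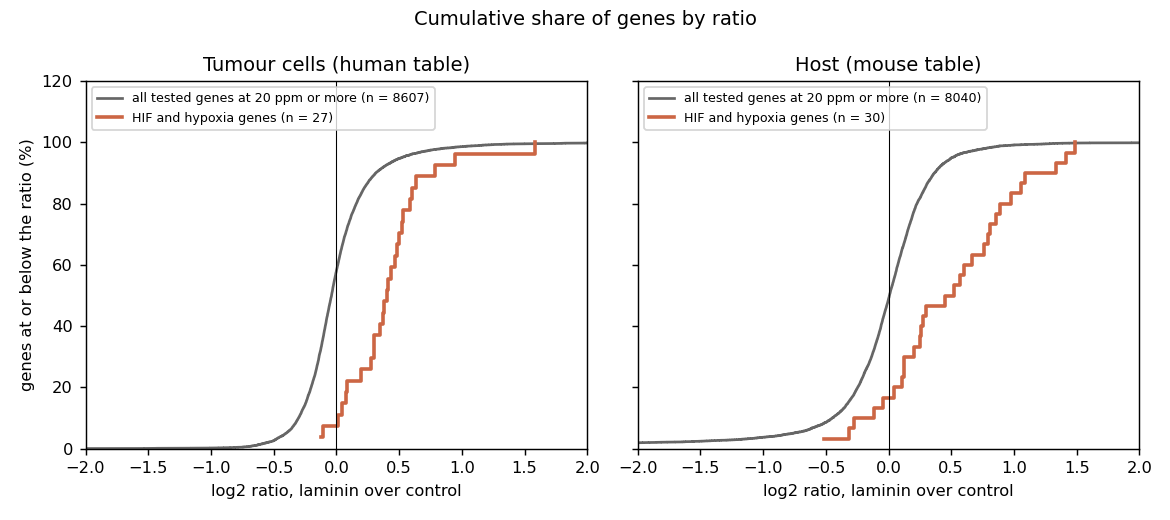
Cumulative share of genes (percent, vertical axis) at or below each log2 ratio of laminin over control tumours, for all tested genes at 20 ppm or more (grey, 8607 human and 8040 mouse genes with a level in both groups) and for the HIF and hypoxia genes at that level (coloured, 27 human and 30 mouse). The coloured curves lie to the right, with medians of 0.40 and 0.49 against -0.04 and 0.01.

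The other genes of the pathway were taken from lists of symbols. The counts of these lists and of the marker lists below stand beside the shares of all tested genes. Those were 5.63% called higher and 2.45% lower in the human table, and 0.579% and 2.96% in the mouse table. Of 18 tested human genes of the HIF machinery 1 rose and 1 fell. CITED2, an inhibitor that competes with HIF for its coactivators and is itself induced by HIF, rose from 9.03 to 13.2 ppm (adjusted p = 0.0196 from the authors' p). HSP90AA1, a chaperone that binds HIF1A, fell from 1139 to 817 ppm (adjusted p = 0.00592 from the authors' p). HIF1AN, the asparagine hydroxylase that blunts HIF activity, had 87.4 and 80.6 ppm, and EGLN2, the hydroxylase not induced by hypoxia, had 135 ppm in both groups. None of 19 mouse genes of this machinery passed the authors' test, and 0 had an unadjusted p under 0.05. Host Hif1an had 67.8 and 53.3 ppm and Egln2 50.5 and 43.0 ppm.

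Some hypoxia targets outside the 32 genes passed the test and most did not. Of 38 tested human genes 13 rose and 0 fell, with a median log2 ratio of 0.46. CITED2, already counted in the HIF machinery, is among these 13. The repressor gene BHLHE41 went from 58.1 to 139 ppm, the carbonic anhydrase CA12 from 198 to 405 ppm, the lipoprotein receptor gene VLDLR from 4.39 to 10.2 ppm and the vessel-constricting peptide gene EDN1 from 9.13 to 18.3 ppm. The growth factor gene VEGFA (313 to 512 ppm) and the vasodilator gene ADM (49.0 to 71.5 ppm) rose too, and each of these 6 genes had an adjusted p of 0.00121, from the authors' p-values. Against them CA9, a carbonic anhydrase under direct HIF-1 control, had 198 and 189 ppm and did not pass (adjusted p = 0.966 from the authors' p). In the host 3 of 37 tested genes rose and 0 fell, with a median log2 ratio of 0.29. Among them were the enolase gene Eno2 (37.1 to 87.7 ppm, q = 0.00238) and Adm (26.0 to 61.5 ppm, q = 0.00642), with q from the authors' deposited table. Host Vegfa had 154 and 277 ppm and missed the threshold with q = 0.0590 in the authors' deposited table.

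Most glycolytic enzymes did not pass the test. Among all tested genes, 5.63% (human) and 0.579% (mouse) were called higher, and 2.45% and 2.96% lower. Of 16 human enzymes 2 rose, PGK1 (941 to 1271 ppm, adjusted p = 0.0142 from the authors' p) and ALDOA (1157 to 1546 ppm, adjusted p = 0.0202), and 0 fell. LDHA, which makes lactate, had 1747 and 2045 ppm and did not pass (adjusted p = 0.422 from the authors' p). Of 15 host enzymes Eno2, already counted among the hypoxia targets, rose. Pfkm, the muscle phosphofructokinase, fell from 118 to 30.5 ppm (q = 0.00827, from the authors' deposited table). Host Ldha had 764 and 630 ppm. Mouse Gapdh, which every cell uses, was listed at 0 in control tumours, so a 0 in this table need not mean that a gene was silent.

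Of 11 tested human glycogen genes PYGB, the brain form of glycogen phosphorylase, rose from 656 to 946 ppm (adjusted p = 0.00418 from the authors' p). In the host 2 of 12 fell, the phosphorylases of muscle, Pygm (to 22.0 ppm, log2 ratio -3.47, q = 0.00238), and liver, Pygl (143 to 67.0 ppm, q = 0.0182), with q from the authors' deposited table. Of 12 other human mitophagy genes 1 rose, GABARAPL1, which helps close autophagosomes (17.6 to 33.5 ppm, adjusted p = 0.00121 from the authors' p), and 0 of 11 passed in the host (0 higher and 1 lower at an unadjusted p under 0.05). Of 13 other human collagen-modifying genes 1 rose, LOXL4, a lysyl oxidase (0.891 to 3.89 ppm, adjusted p = 0.00121 from the authors' p), and 0 of 13 passed in the host (1 higher and 0 lower at an unadjusted p under 0.05).

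The make-up of the host RNA differed between the groups beside these results. Summed over their lists, adipocyte markers held 9305 and 418 ppm of the mouse signal in control and laminin tumours, with 11 of 15 tested genes called lower. Skeletal muscle markers held 7022 and 1120 ppm with 12 of 17 called lower, and skin markers 1949 and 48.9 ppm with 7 of 15 called lower. Pygm, already counted among the glycogen genes, is among the muscle markers called lower. Flg and Krt2 were at 0 in both groups. The 32 HIF and hypoxia genes together held 3036 and 4199 ppm. The part of these lists in the host values was not tested.

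Fibroblast markers held 42259 and 41136 ppm and endothelial markers 2036 and 2142 ppm, with 0 of 12 and 0 of 14 genes called and 0 at an unadjusted p under 0.05 in the authors' deposited table. Macrophage markers held 7287 and 8797 ppm, with 1 of 13 called, Cd14, which was lower. Neutrophil markers held 77.6 and 83.7 ppm, with 0 of 6 called and 0 at an unadjusted p under 0.05. Red cell markers held 128 and 268 ppm. Of 7 tested red cell genes Alas2 rose (6.73 to 36.4 ppm, q = 0.00238 in the authors' deposited table), while Klf1 and Rhag were listed at 0. In the human table markers of stroma and blood held 23.6 and 50.9 ppm, most of it from CD68, which was not called. The 3 of 7 tested genes called higher (CD14, COL1A1 and ITGAM) had at most 3.32 ppm each. Human epithelial markers held 10815 and 9733 ppm, with 3 of 12 tested called. Of these CDX2, an intestinal transcription factor, rose from 19.6 to 67.8 ppm, while MUC2, the mucin of goblet cells, fell from 648 to 365 ppm and TFF3, a peptide they secrete, from 140 to 86.1 ppm (adjusted p = 0.00121 for each, from the authors' p-values). Epithelial markers in the mouse table held 61.4 and 13.0 ppm, with 1 of 4 tested called, Cdh1, which was lower. Their part in the results was not tested either.

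**Figure D4:**
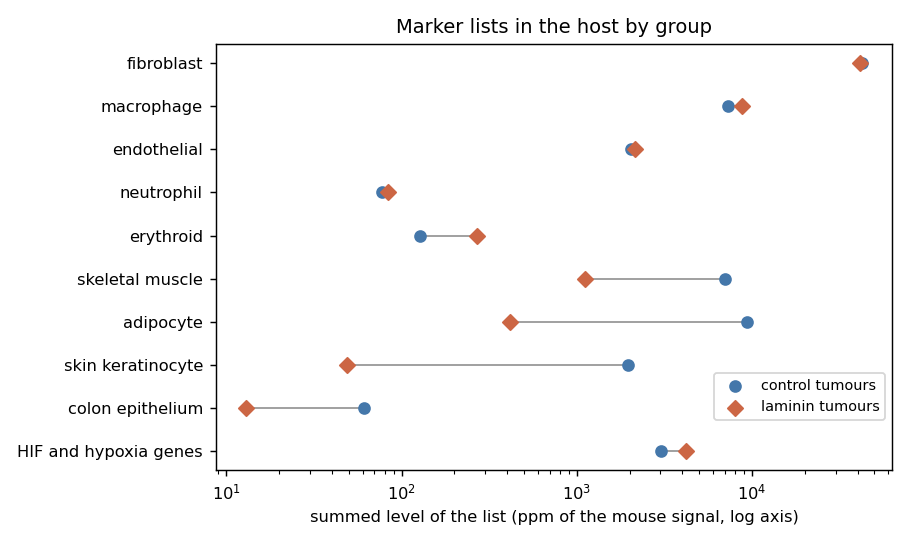
Summed level of each marker list and of the 32 HIF and hypoxia genes in the mouse table, in ppm of the mouse signal (log axis), with circles for control and diamonds for laminin tumours and 1 value per group. Adipocyte, muscle and skin lists lie far lower in laminin tumours, the HIF and hypoxia genes move from 3036 to 4199 ppm, and fibroblast, endothelial and neutrophil lists move little.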

How the data were processed

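RNA of 6 HT29 tumours, 3 per group, was sequenced from oligo-dT purified mRNA, per the labels' protocols, with no step described that keeps the strand. The submitters' processing notes name TopHat2, Cufflinks, hg38 and mm10; their roles, versions and options, and how human and mouse reads were separated, are not stated there. The deposited signal, 1 value per group and gene on a scale the authors do not state, sums, in units of 1000000, to 893 and 891 (human) and 969 and 951 (mouse). The log2 ratio, p-value and, for mouse, q-value are the authors' own, per the file headers; their test statistic, a score in the deposited mouse table, was not used. The 3 copies of the mouse table held the same values and 1 was used; 1 line with shifted cells was left out. Their p-values stop at 5e-05, a value that 1067 human and 301 mouse genes have in the authors' deposited tables.

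Signal was divided by the mean of both groups' sums to give ppm. Human p-values were adjusted by Benjamini-Hochberg over the 25838 tested genes (numpy 2.4.6, scipy 1.17.1); the deposited mouse q-values over 14339 differed from the same adjustment by at most 0.000307. Adjustment, read steps and intervals were tested on simulated data. Among low values (up to 6 reads), 78.2% and 79.7% of human and 93.1% and 92.7% of mouse values were sums of 3 steps within 0.005%. If all libraries were scaled alike, the steps correspond to 27.3 to 31.1 (human) and 1.37 to 3.38 (mouse) times 1000000 reads per tumour. Mouse starts are counted from 1. Only 6 of 32 human loci overlapped their RefSeq GRCh38.p14 positions, although the notes name hg38, so no human coordinates are given.

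Members and lists were chosen with earlier results of these data known. All 32 members are named; of other lists, up to 4 called genes per species with the largest ratio at 5 ppm or more, and VEGFA, ADM, CA9, LDHA, HIF1AN and EGLN2. Gapdh, LOXL4, Pgm2 and genes of the tissue check were named outside this rule, after their values were seen. Some genes of these lists are counted in the totals and not reported here by name.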

Additional observations from a re-analysis of the deposited data

How the results depend on the processing

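The 13 human and 6 host calls stayed at 13 and 6 with a minimum level of 1 or 5 ppm, and 0 genes were called lower under any setting tried. The human count was 8 with the Benjamini-Yekutieli adjustment and 6 with a fold of at least 1.5 required. The host count was 3 at a threshold of 0.01 and 3 with the Benjamini-Yekutieli adjustment. At 20 ppm or more, a minimum chosen after seeing the data, the background share called higher was 6.58% and 0.969%, against 5.63% and 0.579%. Adjusting over both tables together gave 11 and 8. Both medians moved by less than 0.1 with 1 or 5 ppm added, centring, summed rows, a 5 ppm minimum or, in the host, scaling without Lama1 and the adipocyte, muscle and skin lists, which shifts every gene alike and does not test the tissue make-up. No single ratio changed sign under these settings, and ratios moved by about 0.1 or more with 5 ppm added in human BNIP3, ANKRD37 and SLC2A3 (the latter also with 1 ppm) and in host Ankrd37, Hilpda, Stc2 and Ak4, none of which passed, and in called host Slc2a3 (1.48 to 1.28) and Egln3 (1.09 to 0.99). No paired analysis was possible because the tables hold 1 value per group, and for the same reason no tumour could be left out. Depth limits human SLC2A3 and STC2 and host Stc2 and Ankrd37.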
